A study of Mus musculus with 23 samples.

Results

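The hearts described here are 4 taken 7 days after isoproterenol (ISO day 7), set against 4 untreated hearts of the same arm (ISO baseline), 8 of 23 libraries in the series. They were chosen by their group labels alone. All came from wild-type female mice of the inbred C57BL/6J strain, 10 weeks old, and the measurement was RNA sequencing of poly-A RNA from heart tissue. The treated mice received isoproterenol at 300 mg/kg. Another 3 hearts taken 1 day after the same dose (ISO day 1) show what the day 7 hearts had to return from, and the remaining 12 libraries, of a lipopolysaccharide arm, entered the fit only to help estimate the spread. Levels are in CPM, the reads of a gene relative to all reads of its library after scaling between libraries, and 4 values in a row are always replicates 1 to 4 of a group. Replicate numbers are used only to name the hearts, and the labels do not say whether they pair hearts between groups. Each heart is a separate sample in the labels, so p-values measure the spread between hearts, estimated over all 6 groups, together with that of library making.

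Isoproterenol is a synthetic catecholamine that stimulates beta-adrenergic receptors and drives heart rate, contractile force and calcium entry in cardiomyocytes. A large dose can injure some of these cells. Cardiomyocytes under load or injury switch on stress genes such as natriuretic peptides and skeletal actin and lower genes for ion channels and oxidative metabolism. Resident fibroblasts can answer lost muscle by turning into matrix-secreting cells that make periostin, tenascin C and fibrillar collagens, while macrophages clear debris. In bulk tissue, fewer cells of a type and less RNA per cell cannot be told apart.

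The 8 libraries held 20910394 to 30368985 reads assigned to genes, and 15732 genes were tested. Cardiomyocyte genes summed to 104600 to 121400 CPM in these hearts, of which the main ventricular myosin gene Myh6 made up 40950 to 44690 CPM. Of 10 lung epithelial genes, 9 were too low to be tested, and of 10 thymocyte genes, 7. Mitochondrially encoded transcripts took 26.6% ± 1.84 (SD, n = 4) of reads at day 7 and 26.7% ± 1.15 (SD, n = 4) at baseline. Genes with at least 1 read numbered 20670 ± 178 (SD, n = 4) at day 7 and 20190 ± 354 (SD, n = 4) at baseline, with p = 0.02857 by a two-sided exact permutation test, the smallest these groups allow (adjusted p = 0.143 over 5 library measures). The other 4 measures, which were depth, mitochondrial share, haemoglobin share and the share of the top 10 genes, had exact p-values of 0.171 to 0.971.

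The first question was how far the transcriptome had returned by day 7. Most of the day 1 response was gone, from filamin C and the LIM protein Fhl1 to lipocalin and the potassium channel subunits. A single gene, Kcna5, differed between day 7 and baseline at an adjusted p under 0.05 in edgeR's quasi-likelihood test, 0.00636% of the genes tested. At an unadjusted p under 0.05 there were 863 genes (5.49%), 497 higher (3.16%) and 366 lower (2.33%), where 5% would reach it with no gene changed. At day 1, the same test had called 10332 genes (65.7%), 32.9% of all genes higher and 32.8% lower. Of these, 3576 (22.7% of all genes) differed at least 2-fold from baseline, 1567 higher (9.96%) and 2009 lower (12.8%). Between day 7 and day 1, 10236 genes differed (65.1%), with 33.2% of all genes higher and 31.9% lower at day 7. The comparisons with baseline share the baseline hearts.

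The genes called at least 2-fold at day 1 had a median absolute log2 difference from baseline of 1.53 at day 1 and 0.13 at day 7. Over all genes tested the medians were 0.53 and 0.09. None of the 3576 was called at day 7 (0 by edgeR, 233 at an unadjusted p under 0.05). A missing call does not show a return, so 95% intervals of the day 7 difference were compared with a 2-fold difference in either direction. The interval lay inside it for 2736 of the 3576 genes (76.5%), against 13427 of all 15732 (85.3%). The share differed with the level of the genes. Among genes with a mean of at least 5 CPM over the 11 hearts of the arm, day 1 included, the interval was inside for 9651 of 9732 (99.2%), and below 5 CPM for 3776 of 6000 (62.9%). For genes whose interval was not inside, the data leave room for a 2-fold difference at day 7. For genes that moved less than 2-fold at day 1, an interval inside does not by itself show a return. The interval lay wholly on the baseline side of the gene's own day 1 difference for 3420 of the 3576 genes (95.6%). Over all genes tested it did so for 11007 (70%). That excludes the full day 1 difference only, and a smaller part of it can remain.

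Of the 1567 genes raised at least 2-fold at day 1, 1087 (69.4%) had a day 7 interval inside a 2-fold difference. At day 7, 50 of the 1567 lay wholly above the baseline hearts and 10 wholly below, where 2.04% and 1.65% of all genes tested did. Some strongly raised genes overlapped with the baseline hearts at day 7 with no heart standing apart. Others, such as Mt2, Serpina3n, Timp1, Lox and Tnc, were highest and above baseline in replicate 3 and are given with that heart. Of these, Serpina3n was also above every baseline heart in replicates 1 and 4, Lox in replicate 4, and Tnc and Timp1 in replicate 2. Fhl1 (chromosome X, 56731787 to 56793346, mm10), a LIM-domain protein of the sarcomere linked to stretch sensing, stood at 80.4, 84.7, 83.0 and 84.5 CPM at baseline, at 1973, 2385 and 2327 CPM at day 1, and at 88.2, 73.6, 81.7 and 89.9 CPM at day 7. The day 7 hearts lay on both sides of the baseline hearts, with a log2 difference of 0.00 (SE 0.15, 95% interval -0.31 to 0.31). Flnc, filamin C, which crosslinks actin at the Z-disc, stood at 496, 541, 459 and 531 CPM at baseline, 5583, 7123 and 5845 CPM at day 1, and 456, 494, 471 and 492 CPM at day 7. Lcn2, the iron-siderophore binding lipocalin, went from 1.21 to 2.45 CPM at baseline through 136 to 152 CPM at day 1 to 0.917 to 2.002 CPM at day 7. Nmrk2, a muscle nicotinamide riboside kinase, went from 1.22 to 2.57 CPM through 123 to 452 CPM to 1.49 to 3.74 CPM. For Fhl1, Flnc, Lcn2 and Nmrk2 the ranges of the day 7 and baseline hearts overlapped.

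Stress response and inflammatory signalling genes gave no call at day 7, and how closely their return could be bounded varied between lists. Hspa1a, an inducible HSP70 chaperone, was at 31.2 to 107 CPM at day 1, at 4.34 to 7.25 CPM at baseline and at 4.95 to 5.70 CPM at day 7. Socs3, the feedback inhibitor of the IL-6 receptor pathway, was at 51.1 to 71.8 CPM at day 1, 3.08 to 5.29 CPM at baseline and 2.69 to 5.78 CPM at day 7. Pdk4, which holds back pyruvate oxidation, was at 3577 to 4380 CPM at day 1 and at 163, 121.5, 280 and 143 CPM at day 7, inside its baseline range of 100.2 to 370.4 CPM. Of 26 immediate early genes, 24 had risen at day 1, where 32.9% of all genes tested were called higher. At day 7 none was called, the median log2 difference was -0.14, and 7 were above 0, as 51.6% of all genes tested were. All 13 tested metallothionein and acute-phase genes had risen at day 1, with a median of 4.34, which stood at 0.15 at day 7. Of the 12 that had changed at least 2-fold, 5 had a day 7 interval inside a 2-fold difference, and of 15 such chemokine genes, 5. The NRF2 antioxidant genes had risen in 19 of 26. At day 7 their median was -0.15, 4 of 26 were above 0, and 5 were lower at an unadjusted p under 0.05, as 2.33% of all genes were.

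Among genes lowered at least 2-fold at day 1, 1649 of 2009 (82.1%) had a day 7 interval inside a 2-fold difference. At day 7, 62 of the 2009 lay wholly below the baseline hearts and 20 wholly above, where 1.65% and 2.04% of all genes tested did. Some of the most lowered genes are given first. Lsmem1, a small membrane protein gene, was at 16.3, 13.3, 15.8 and 15.3 CPM at baseline, at 0.518, 0.511 and 0.125 CPM at day 1, and at 13.1, 14.1, 12.8 and 13.1 CPM at day 7 (log2 difference from baseline -0.20, SE 0.10, edgeR adjusted p = 0.921). Ky, a muscle protein gene of the Z-disc, was at 28.01 to 30.8 CPM at baseline, 0.681 to 1.96 CPM at day 1 and 34.4, 27.2, 19.3 and 25.6 CPM at day 7. Col6a6, a collagen VI chain, was at 9.23 to 12.6 CPM, then 0.272 to 0.4998 CPM, then 9.08 to 17.2 CPM. Tcap, the titin cap protein, was at 1184 to 1351 CPM, then 166 to 254.5 CPM, then 1146 to 1679 CPM. The ranges of the 2 groups overlapped for these 4 genes, although 3 of 4 day 7 hearts were below every baseline heart for Lsmem1 and for Ky.

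**Figure D1:**
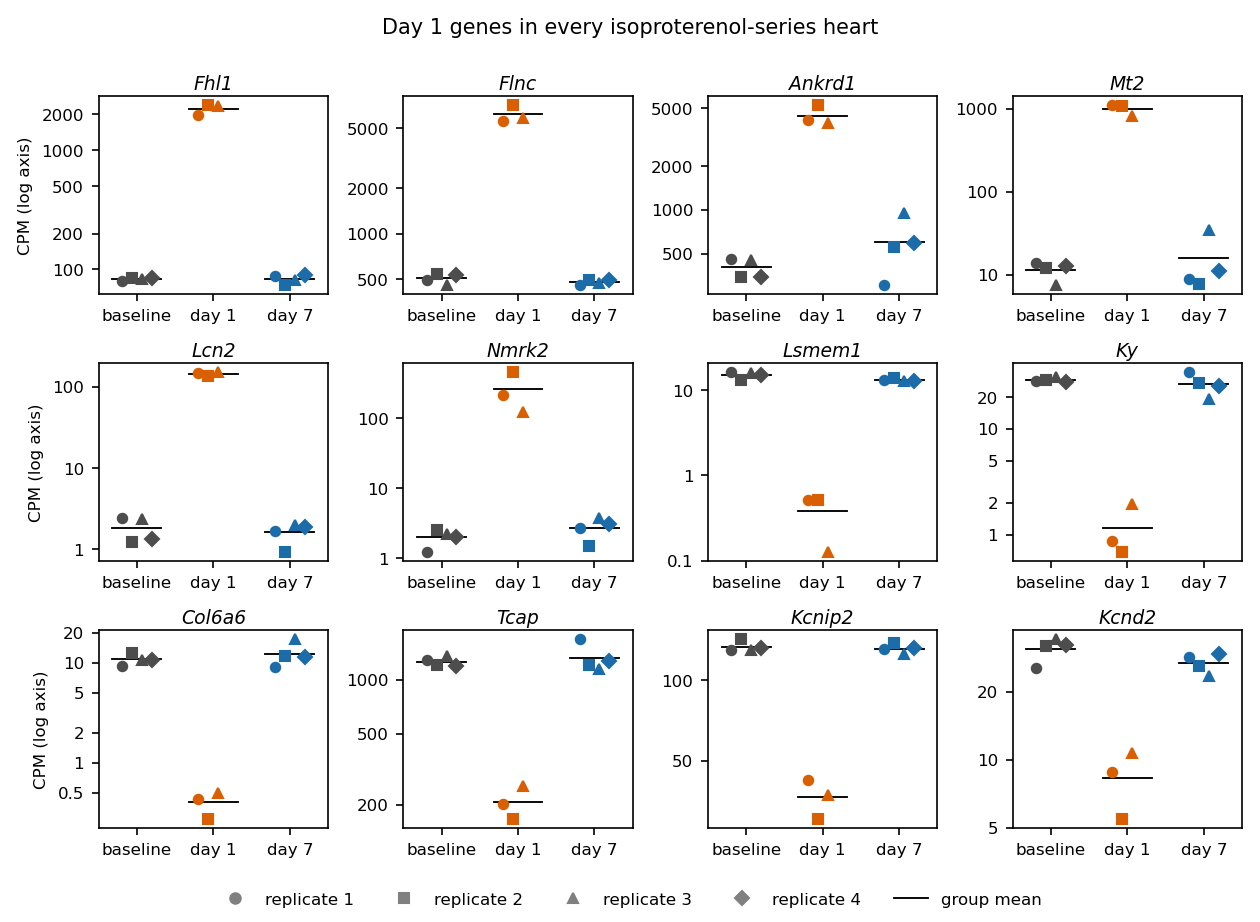
Each panel plots 1 gene in the 11 hearts of the isoproterenol arm, in CPM on a log axis, by group, with a marker shape for each replicate number and a line at the group mean. In all 12 panels the day 1 hearts stand apart from baseline, and the day 7 hearts overlap with the baseline hearts, with replicate 3 uppermost at day 7 for Ankrd1 (947 CPM) and Mt2 (35.0 CPM).

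The gene called at day 7 is one of the potassium channels that end the action potential. All 21 genes of the list were lower at day 1, where 32.8% of all genes tested were called lower, with a median log2 difference of -1.32. At day 7 the median was 0.01, with 12 of 21 above 0 and 1 called. Kcnip2, the accessory subunit of the transient outward channel, stood at 130, 143, 130 and 132 CPM at baseline, 42.5, 30.2 and 37.1 CPM at day 1 and 130, 138, 125 and 132 CPM at day 7. Its pore subunit Kcnd2 was at 25.3 to 34.1 CPM, then 5.45 to 10.8 CPM, then 28.4, 25.9, 23.5 and 29.4 CPM. Pln, phospholamban, the brake on the calcium pump and a target of beta-adrenergic signalling, was at 3331 to 3577 CPM, then 1127 to 1738 CPM, then 3794, 3519, 2818 and 3554 CPM.

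Kcna5 (ENSMUSG00000045534, protein-coding, chromosome 6, 126532551 to 126535412, mm10) encodes the Kv1.5 pore subunit of an ultrarapid delayed rectifier. It stood at 32.2, 28.1, 27.3 and 31.8 CPM at baseline, at 22.9, 24.9 and 24.4 CPM at day 1, and at 17.7, 20.9, 21.6 and 21.3 CPM at day 7. The 4 day 7 hearts all lay below the 4 baseline hearts, and below the 3 day 1 hearts. The log2 difference from baseline was -0.55 (SE 0.08, edgeR adjusted p = 0.0115) at day 7 and -0.31 (SE 0.09, adjusted p = 0.00375) at day 1. The call at day 7 did not survive leaving out baseline replicate 1 or 4 (edgeR adjusted p = 0.108 and 0.103) or day 7 replicate 1 or 2 (0.0892 and 0.0516). It was also lost in a fit of these groups only (0.473), under scaling by library totals (0.533) and on log2(TPM + 0.1) values (0.617). Its adjusted p ranged from 3.52e-06 to 0.618 over the alternatives, while the log2 difference stayed between -0.60 and -0.47. The RefSeq promoter window of Kcna5, 250 bases before to 50 after its RefSeq start (chr6:126535506-126535805, minus strand, GRCm38.p6), is shown because it is the one gene called. Capitals mark its only match to the motifs searched, a TEAD site (GGAATG).

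Kcna5: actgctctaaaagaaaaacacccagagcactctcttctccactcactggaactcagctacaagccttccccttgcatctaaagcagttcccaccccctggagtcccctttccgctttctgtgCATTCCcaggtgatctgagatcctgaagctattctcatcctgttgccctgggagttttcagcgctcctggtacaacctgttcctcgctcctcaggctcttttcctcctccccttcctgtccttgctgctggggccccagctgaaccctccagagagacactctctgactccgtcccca

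The motifs searched, on both strands and with overlaps allowed, were the E-box CACGTG, the SMAD element CAGAC, the TEAD site GGAATG, the AP-1 site TGANTCA and the D-box TTATGNAA. Of 15718 tested gene symbols, 11161 had a window, and the share holding at least 1 match was 11.4%, 53%, 14.7%, 6.35% and 2.55% in that order. A match describes letters and does not show a binding site.

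Further genes separated day 7 from baseline without passing the adjusted test. Over all genes, the 4 day 7 hearts lay entirely above the 4 baseline hearts for 321 (2.04%) and entirely below for 260 (1.65%), 3.69% in all. Egfl7, a secreted endothelial protein, stood at 44.9, 46.4, 43.1 and 43.7 CPM at baseline and at 51.99, 54.3, 53.9 and 52.3 CPM at day 7, a log2 difference of 0.26 (SE 0.05, edgeR adjusted p = 0.537, DESeq2 adjusted p = 0.0145). Its day 7 hearts were tightly grouped and all above baseline, whereas its day 1 hearts, at 42.0, 47.4 and 46.7 CPM, overlapped with baseline. Ebf2, a transcription factor gene, was at 7.00, 6.45, 6.30 and 6.53 CPM at baseline and 8.98, 8.12, 9.62 and 8.58 CPM at day 7. Ddrgk1, part of a protein-modification complex of the endoplasmic reticulum, was at 35.0 to 39.1 CPM and 43.2 to 46.9 CPM. For these genes edgeR gave an adjusted p of 0.681.

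On the low side, Fam131a stood at 27.7, 21.9, 27.7 and 27.3 CPM at baseline, 10.9, 7.90 and 8.83 CPM at day 1 and 18.9, 19.1, 14.6 and 19.1 CPM at day 7 (log2 difference -0.55, SE 0.13, edgeR adjusted p = 0.681). Itgb6, an epithelial integrin subunit that can activate latent TGF-beta, was at 16.0, 18.8, 15.7 and 19.3 CPM, then 1.64, 1.53 and 2.62 CPM, then 11.4, 15.1, 9.29 and 12.1 CPM (log2 difference -0.54, SE 0.14, adjusted p = 0.681). Day 7 values of both genes were between the day 1 and baseline hearts. Igsf1 showed the same order, with 12.6 to 15.3 CPM at baseline, 3.71 to 4.61 CPM at day 1 and 6.70 to 11.5 CPM at day 7. Jdp2, a repressor of AP-1 targets, did not: it was at 6.35 to 8.53 CPM at baseline, 9.36 to 11.7 CPM at day 1 and 4.81 to 5.48 CPM at day 7.

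Myh7 (chromosome 14, 54970684 to 54994626, mm10) is the slow, fetal-type myosin heavy chain that rodent ventricles re-express in hypertrophy. It stood at 172, 160, 177 and 161 CPM at baseline, at 162, 187 and 154 CPM at day 1, and at 220, 228, 642 and 305 CPM at day 7. All day 7 hearts were above all baseline hearts, and replicate 3 was the highest. The log2 difference was 1.06 (SE 0.27, edgeR adjusted p = 0.681), 0.58 without replicate 3, and with no filter on low counts the adjusted p was 0.0265. At day 1 the difference was 0.00 (SE 0.28). The adult paralogue Myh6, at 44450, 42860, 40960 and 41500 CPM at day 7, is close in sequence and far more abundant, so how reads divide between them is uncertain.

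Ribosomal protein genes stood slightly above baseline in all 4 day 7 hearts. At day 1 all 26 had risen, where 32.9% of all genes tested were called higher, with a median log2 difference of 0.77. At day 7, 25 of 26 were above 0 (51.6% of all genes were), with a median of 0.13. Of the 26, 13 lay wholly above baseline (2.04% of all genes did), and 11 were higher at an unadjusted p under 0.05 (3.16%). None was called. The list median was 0.12, 0.12, 0.12 and 0.15 in the 4 day 7 hearts and -0.06 to 0.08 in the baseline hearts. Rpl3, a large-subunit protein gene, stood at 74.3, 76.7, 68.3 and 72.1 CPM at baseline, 241, 268 and 249 CPM at day 1 and 82.0, 87.7, 105 and 99.9 CPM at day 7. Rps18, of the small subunit, was at 108 to 116 CPM, then 219 to 226 CPM, then 120 to 137 CPM. With library totals as the scaling and with TPM 25 of 26 were above 0, with medians of 0.16 and 0.17, where 9839 and 9821 of all 15732 genes were above 0. The hearts were then less even. The list medians by heart were 0.06, 0.16, 0.28 and 0.16 with library totals, where those of all genes were -0.0584, 0.0445, 0.155 and 0.00735. With TPM they were 0.05, 0.15, 0.31 and 0.13, against -0.0768, 0.0532, 0.197 and -0.009. Many ribosomal protein genes have processed pseudogenes, so their estimated counts are uncertain.

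**Figure D2:**
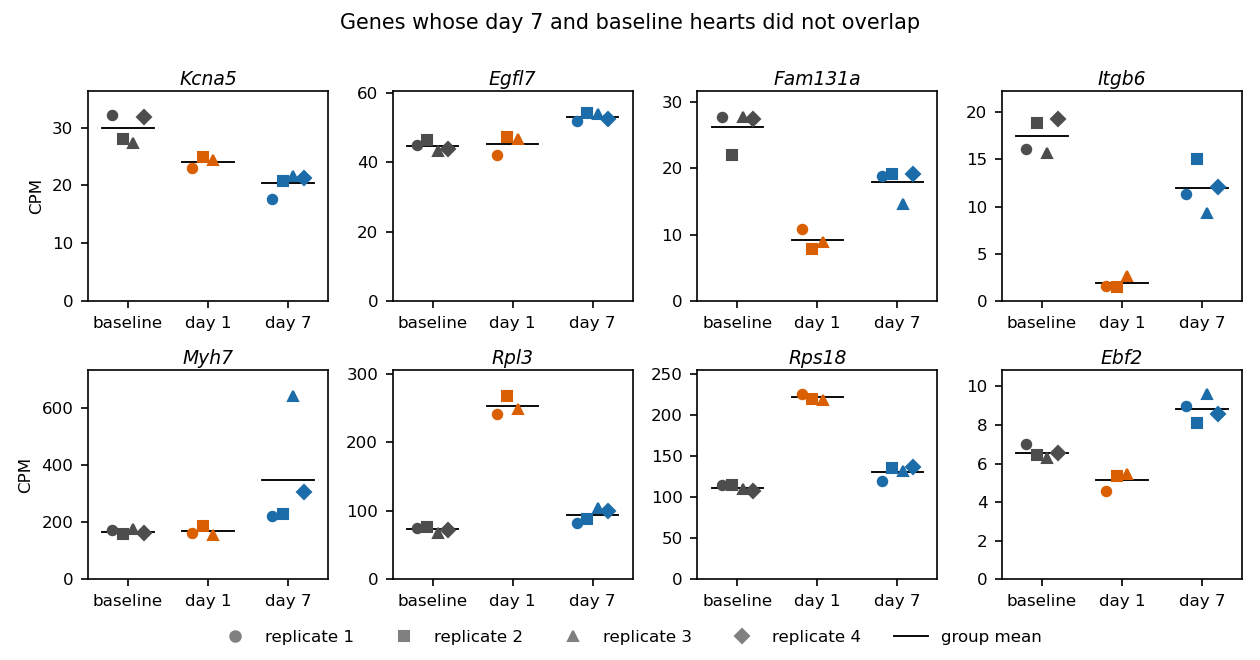
Each panel plots 1 gene in the 11 hearts, in CPM from 0, by group, with a marker shape for each replicate number and a line at the group mean. In all 8 panels the 4 day 7 hearts lie wholly above or wholly below the 4 baseline hearts, and only Kcna5 passed the adjusted test.

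The second question was how much the day 7 hearts vary among themselves. They varied more than the baseline hearts, and most of the excess lay in 1 heart, replicate 3, with a smaller part in replicate 1. The median SD of log2 CPM over genes was 0.16 at day 7, 0.12 at baseline and 0.15 at day 1. At day 7 it was 0.123 without replicate 3 and 0.141 without replicate 1, and at baseline 0.111 to 0.117 with 1 heart left out. The SD was larger at day 7 than at baseline for 62.6% of genes. The common biological coefficient of variation, estimated within each group, was 13.6% at day 7 and 6.72% at baseline. The difference in spread was not tested. Hearts were also compared pair by pair as the root mean square of their log2 differences. Baseline pairs were 0.17 to 0.19 apart, baseline and day 1 hearts 0.78 to 0.94, and day 7 pairs 0.16 to 0.38. The pair of day 7 replicates 2 and 4 was the closest, at 0.16, and that of replicates 1 and 3 the farthest, at 0.38.

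Counting genes gave the same order of hearts. Of 9732 genes with a mean of at least 5 CPM, 32, 11, 93 and 10 were at least 2-fold from the baseline mean in day 7 replicates 1 to 4. A baseline heart was 2-fold from the mean of its 3 companions for 9 to 12 genes, and a day 1 heart from baseline for 1369 to 1860 genes. Replicates 2 and 4 thus had as few departures as baseline hearts. Of the 93 genes in replicate 3, 79 were higher, and of the 32 in replicate 1, 21 were lower.

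**Figure D3:**
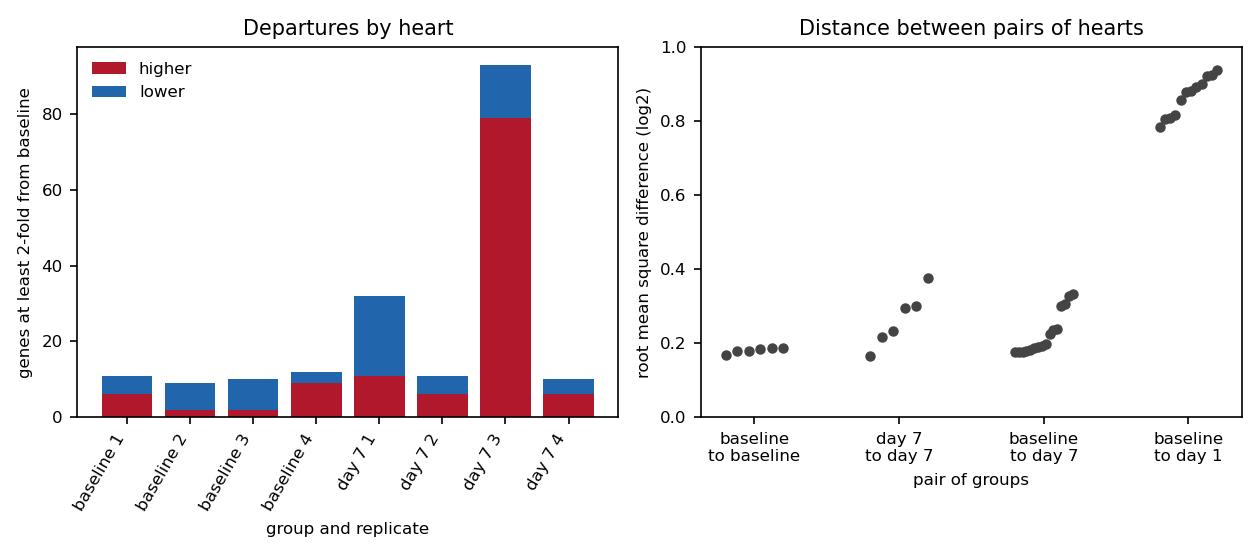
On the left, bars count the genes, of 9732, at least 2-fold higher or lower in a heart than the baseline mean (baseline hearts against the mean of the other 3). On the right, each point is the root mean square log2 difference of a pair of hearts. Replicate 3 has 93 departures and replicate 1 has 32 among the day 7 hearts, and every day 7 heart is nearer to baseline than any day 1 heart.

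Replicate 3 was set apart by genes of activated fibroblasts. Postn (chromosome 3, 54361109 to 54391037, mm10), periostin, a matricellular protein that marks activated fibroblasts, stood at 15.0, 24.1, 221 and 20.2 CPM at day 7, at 19.8, 23.9, 16.0 and 24.7 CPM at baseline, and at 61.8, 68.8 and 77.3 CPM at day 1. Cilp (chromosome 9, 65265180 to 65280605), a cartilage intermediate layer protein made by cardiac fibroblasts, was at 11.0, 14.8, 119 and 14.9 CPM at day 7, 13.6 to 15.6 CPM at baseline and 6.502 to 11.9 CPM at day 1. Ltbp2 (chromosome 12, 84783212 to 84876532), a latent TGF-beta binding protein, was at 2.54, 3.09, 42.2 and 3.24 CPM at day 7, 3.704 to 4.67 CPM at baseline and 11.8 to 13.5 CPM at day 1. In replicate 3 these 3 genes were above every day 1 heart. In the other 3 day 7 hearts they were inside or below the baseline range.

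Other members of the list followed. Tnc, tenascin C of provisional matrix, stood at 0.565, 1.90, 19.1 and 1.27 CPM at day 7, 0.815 to 1.455 CPM at baseline and 24.5 to 37.0 CPM at day 1. Lox, the collagen crosslinking enzyme, was at 2.65, 3.06, 25.1 and 4.14 CPM, with 2.13 to 3.33 CPM at baseline and 94.1 to 110 CPM at day 1. Timp1, a metalloproteinase inhibitor, was at 0.990, 1.05, 5.25 and 0.858 CPM, with 0.778 to 1.025 CPM at baseline and 30.03 to 40.7 CPM at day 1. For these 3 genes replicate 3 lay between baseline and day 1. Thbs4, a matrix thrombospondin, was at 3.43, 3.23, 35.3 and 4.70 CPM at day 7, above its day 1 range of 11.8 to 16.3 CPM in replicate 3. None of the 22 tested activated fibroblast genes was called between day 7 and baseline. Of the 22, 20 were highest in replicate 3, where 31.3% of all genes tested were. With library totals and with TPM the count was 21, against 54.5% and 57.8% of all genes. The list median in the 4 hearts was -0.43, 0.02, 1.44 and -0.01 on the log2 scale, against -0.26 to 0.24 in baseline hearts and 0.53 to 0.78 at day 1.

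Collagens showed a wider picture, since replicate 1 was low as well as replicate 3 high. Col3a1 (chromosome 1, 45311538 to 45349706, mm10), a fibrillar collagen of interstitial matrix, stood at 110, 303, 1024 and 218 CPM at day 7, at 207, 256, 195 and 271 CPM at baseline and at 127, 137 and 139 CPM at day 1. Col1a1 was at 92.2, 175, 623 and 143 CPM at day 7, 127 to 168 CPM at baseline and 125 to 142 CPM at day 1. The basement membrane chain Col4a1 was at 337, 611, 735 and 564 CPM at day 7, 467 to 622 CPM at baseline and 2147 to 2585 CPM at day 1. The fibrillar collagens in replicate 3 were therefore high without having been raised in the day 1 hearts. Of 25 tested collagen genes, 22 were highest in replicate 3 and 21 lowest in replicate 1, against 31.3% and 29.6% of all genes tested. With library totals these were 22 and 22, against 54.5% and 49.3% of all genes. With TPM they were 23 and 21, against 57.8% and 50.1%. Summed over the list, collagen genes made 1428, 2566, 4802 and 2239 CPM at day 7 and 1958 to 2540 CPM at baseline. The collagen median was -0.56, 0.18, 0.86 and -0.02, a span wider than the -0.30 to 0.23 of the baseline hearts.

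Because Thbs4 and Ltbp2 moved together in replicate 3, their RefSeq promoter windows are shown, with matches to the SMAD element (CAGAC or GTCTG) and the TEAD site (GGAATG or CATTCC) in capitals. The windows are chr13:92794769-92795068 and chr12:84876442-84876741, both on the minus strand of GRCm38.p6.

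Thbs4: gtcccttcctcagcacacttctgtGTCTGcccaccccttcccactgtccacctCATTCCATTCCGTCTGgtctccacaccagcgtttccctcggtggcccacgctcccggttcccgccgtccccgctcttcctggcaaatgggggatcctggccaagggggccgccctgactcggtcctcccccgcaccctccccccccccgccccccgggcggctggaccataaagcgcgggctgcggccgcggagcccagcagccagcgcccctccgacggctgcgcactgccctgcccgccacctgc

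Ltbp2: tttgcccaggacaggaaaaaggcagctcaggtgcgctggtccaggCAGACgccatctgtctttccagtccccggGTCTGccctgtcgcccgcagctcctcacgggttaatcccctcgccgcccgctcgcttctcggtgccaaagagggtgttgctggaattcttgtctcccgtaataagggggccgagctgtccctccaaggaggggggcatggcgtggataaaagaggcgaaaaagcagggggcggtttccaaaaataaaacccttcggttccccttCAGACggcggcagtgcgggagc

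Thbs4 held 2 SMAD elements and 2 overlapping TEAD sites, and Ltbp2 held 3 SMAD elements and no TEAD site. Among the 11 activated fibroblast genes with a window, 9 (81.8%) had a SMAD element and 3 (27.3%) a TEAD site, where the shares of all windows were 53% and 14.7%. Of these 11 genes, 0 had an E-box, 0 an AP-1 site and 1 a D-box. Among the 20 collagen genes with a window, 12 (60%) had a SMAD element and 4 (20%) a TEAD site. These are small counts and no test was made of them.

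Markers of other cell types moved with the matrix genes in replicate 3, and their part in the matrix values was not tested. General fibroblast genes, 20 of 20 tested, summed to 2188, 2625, 4489 and 2685 CPM at day 7 and 2508 to 2631 CPM at baseline. Recruited monocyte and inflammatory macrophage genes, 18 of 18 tested, summed to 20.8, 25.3, 64.2 and 23.4 CPM at day 7 and 23.2 to 27.8 CPM at baseline. Resident macrophage genes, 17 of 17 tested, summed to 364, 405, 589 and 373 CPM against 391 to 412 CPM. Of these, 15 were highest in replicate 3, against 31.3% of all genes. With library totals and with TPM all 17 were, against 54.5% and 57.8% of all genes. Adgre1, which encodes the macrophage antigen F4/80, stood at 5.37, 6.15, 16.2 and 4.74 CPM at day 7 and 5.75 to 7.08 CPM at baseline. Mrc1, the mannose receptor of resident macrophages, was at 21.6, 22.5, 44.3 and 17.9 CPM against 22.8 to 24.1 CPM. Neutrophil genes summed to only 4.11 to 5.78 CPM at day 7 and 3.87 to 5.33 CPM at baseline.

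Phagocyte and matrix glycoprotein genes had the same highest heart. Gpnmb, a lysosomal glycoprotein of lipid-handling macrophages, was at 0.990, 0.645, 5.35 and 1.60 CPM at day 7 and 0.778 to 2.91 CPM at baseline. Trem2, a phagocytic receptor of macrophages, was at 0.601, 0.917, 4.20 and 1.23 CPM against 0.835 to 2.11 CPM. Spp1, osteopontin, was at 0.141, 0.238, 2.26 and 0.149 CPM against 0.185 to 0.388 CPM, and had been at 1.499 to 3.61 CPM at day 1. The complement protease genes C1ra and C1s1 were at 26.4 and 27.2 CPM in replicate 3 and at 16.1 to 17.8 and 18.1 to 19.8 CPM in the other 3 day 7 hearts. At day 1 both had been below baseline.

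Genes of dividing cells were also highest there. Of 28 mitosis genes, 27 were highest in replicate 3, where 31.3% of all genes tested were. With library totals the count was 27, against 54.5% of all genes, and with TPM 25, against 57.8%. Mki67, the proliferation antigen Ki-67, stood at 1.59, 5.71, 12.0 and 2.31 CPM at day 7 and at 3.26, 4.36, 1.74 and 4.48 CPM at baseline. Top2a, the DNA topoisomerase of mitotic chromosomes, was at 0.671, 2.99, 5.28 and 1.27 CPM against 0.778 to 2.09 CPM. The list median was -0.51, 0.42, 1.51 and -0.35 at day 7 and -0.57 to 0.56 at baseline. Baseline hearts therefore already spread widely in this list, and only replicate 3 lay outside their range on the high side.

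Of 19 cardiomyocyte stress genes, 7 were highest and 7 lowest in replicate 3, near the 31.3% and 33.7% of all genes, with a list median of -0.02 there. Some of the best known members were high, as were a few genes of the acute-phase list. Ankrd1, a load-responsive titin-binding protein, was at 303, 552, 947 and 596 CPM at day 7, at 348 to 460 CPM at baseline and at 3935 to 5240 CPM at day 1. Nppa, atrial natriuretic peptide, was at 67.8, 65.4, 228 and 123 CPM at day 7, with 80.4 to 100.5 CPM at baseline and 158 to 210 CPM at day 1. Replicate 3 was not alone here, since Ankrd1 was above every baseline heart in replicates 2 and 4 too. Nppa was above them in replicate 4 and below them in replicate 2. Acta1, skeletal actin, was at 28.2, 85.7, 291.5 and 107 CPM, with 79.9 to 150 CPM at baseline. Mt2, a metallothionein, was at 8.91, 7.78, 35.0 and 11.0 CPM, with 7.45 to 13.7 CPM at baseline, and Serpina3n, an acute-phase protease inhibitor, at 4.45, 2.51, 9.75 and 4.10 CPM with 2.04 to 3.89 CPM. In contrast Fhl1, Flnc, Hspa1a and Lcn2, given above, were within 1.5-fold of the baseline mean in replicate 3.

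Energy and calcium genes stood lower in replicate 3, to a degree that depended on the scaling. With the scaling used throughout, replicate 3 was the lowest day 7 heart for 32 of 32 nuclear oxidative phosphorylation genes, 27 of 32 fatty acid oxidation genes, 23 of 24 branched-chain amino acid genes and 16 of 18 calcium handling genes, where it was lowest for 33.7% of all genes tested. List medians in that heart were -0.30, -0.34, -0.33 and -0.31 in the same order. With library totals, which moved the median of all genes in replicate 3 to 0.15, the counts were 21, 25, 21 and 12, where replicate 3 was lowest for 14.3% of all genes. With TPM they were 11, 22, 15 and 8, against 10.3% of all genes, and replicate 4 was lowest for 12 oxidative phosphorylation genes. List medians in replicate 3 were then -0.10, -0.13, -0.13 and -0.11. The low values were not particular to these lists. With the scaling used throughout, 16 of 21 cardiomyocyte genes were lowest in replicate 3 (10 with library totals, 5 with TPM), with a median of -0.25. So were 16 of 21 repolarizing potassium channel genes (10 and 9) and 20 of 26 heat shock chaperone genes (10 and 7). With TPM, replicate 1 was lowest for more cardiomyocyte (9) and heat shock chaperone genes (10) than replicate 3. With the scaling used throughout, replicate 1 stood at the other end. It was the highest day 7 heart for 24 oxidative phosphorylation, 27 fatty acid oxidation and 22 branched-chain amino acid genes, against 29.4% of all genes. With library totals these were 4, 22 and 13, against 12.4%, and with TPM 3, 14 and 9, against 10.3%. For oxidative phosphorylation, replicate 2 was highest instead, for 27 genes with library totals and 26 with TPM. With TPM it was also highest for 13 branched-chain amino acid genes. Erythroid genes, of which 8 of 10 were tested, were lowest in replicate 3 for 8 of 8, with Hba-a1, an alpha-globin gene with a near-identical copy, at 282, 213, 50.6 and 352 CPM at day 7 and 154.5 to 279 CPM at baseline. The haemoglobin share of reads was 0.0164% in replicate 3 and 0.0682% to 0.109% in the other 3 hearts.

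**Figure D4:**
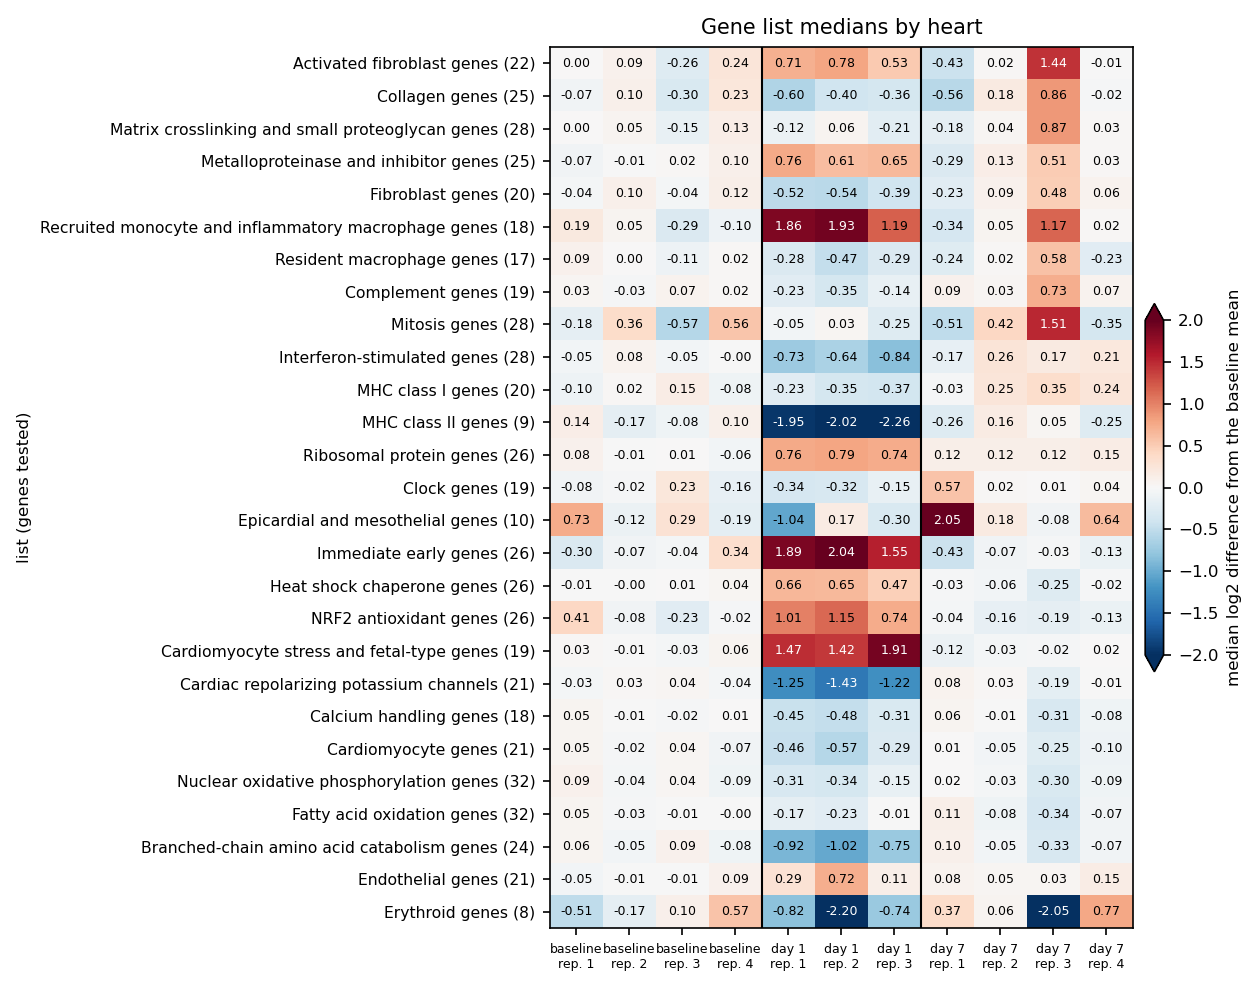
Each cell gives the median over a gene list of the log2 difference between 1 heart and the baseline mean, coloured from -2 (blue) to 2 (red), with lists in rows and the 11 hearts of the arm in columns. Day 7 replicate 3 stands at 1.44 for activated fibroblast genes and replicate 1 at 2.05 for epicardial and mesothelial genes, while the columns of replicates 2 and 4 stay near 0 for most lists.

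Replicate 1 was often at the other end from replicate 3. It was lowest for 17 of 22 activated fibroblast and 19 of 28 mitosis genes, where 29.6% of all genes were lowest. With library totals these were 18 and 19, against 49.3% of all genes, and with TPM 19 and 18, against 50.1%. Replicate 1 departed in further genes as well. Nppb, B-type natriuretic peptide, stood at 13.1 CPM there and at 67.2, 49.4 and 50.02 CPM in the other 3 day 7 hearts, with 38.0 to 47.1 CPM at baseline and 173 to 202 CPM at day 1. Acta1, at 28.2 CPM, was also below every baseline heart. Thbs1, a thrombospondin that can activate TGF-beta, was at 2.62, 7.37, 17.04 and 7.24 CPM at day 7, 6.11 to 11.2 CPM at baseline and 157 to 234 CPM at day 1. Immediate early genes were lowest in replicate 1 for 21 of 26 and interferon-stimulated genes for 24 of 28, where 29.6% of all genes were lowest. With library totals, under which 49.3% of all genes were lowest in replicate 1, these counts were 22 and 27. Fos, at 0.636 CPM in replicate 1, was as low in baseline replicate 1, at 0.630 CPM.

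Clock genes of opposite phase stood apart in opposite directions in replicate 1. In the clock, the activators Arntl (BMAL1), Clock and Npas2 drive Per and Cry genes and the D-box factors Dbp, Tef and Hlf, whose peaks fall at another time of day than that of Arntl. Arntl (chromosome 7, 113207465 to 113314126, mm10) stood at 1.24, 5.60, 6.76 and 6.23 CPM at day 7 and at 8.27, 7.27, 4.41 and 7.97 CPM at baseline. Npas2 was at 0.884, 3.36, 3.78 and 3.62 CPM against 2.78 to 3.85 CPM. Dbp (chromosome 7, 45705088 to 45710203) was at 159, 87.3, 87.7 and 87.3 CPM, and at 74.7, 72.4, 107 and 70.2 CPM at baseline. So the activators were lowest and the output genes highest in replicate 1.

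The negative limb moved with Dbp. Per2 stood at 20.5, 8.59, 10.1 and 8.95 CPM at day 7 and 8.30, 9.89, 13.5 and 8.77 CPM at baseline. Per3 was at 24.4, 13.4, 11.1 and 12.2 CPM, and Cry2 at 43.7, 29.7, 31.9 and 32.1 CPM. Hlf was at 43.2, 27.2, 21.8 and 26.2 CPM. Among the baseline hearts, replicate 3 was the lowest for Arntl and the highest for Dbp, Per2, Per3, Cry2 and Hlf, so the same contrast was present, at a smaller size, in an untreated heart. The time of day at which hearts were taken is not given in the sources used here, and its part in these values was not tested. Of 19 clock genes, 13 were highest in replicate 1, as 29.4% of all genes were. With library totals the count was 12, against 12.4% of all genes, and with TPM 11, against 10.3%.

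The windows of Per3 and Ciart, a repressor of the clock activators, are shown because they carry the clock motifs among the genes that were high in replicate 1, where Ciart stood at 7.67 CPM against 2.85 to 4.21 CPM in the other 3 day 7 hearts. They are chr4:151044616-151044915 and chr3:95882179-95882478, both on the minus strand of GRCm38.p6. Capitals mark the D-box (TTATGNAA) in Per3 and the E-box (CACGTG) in Ciart.

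Per3: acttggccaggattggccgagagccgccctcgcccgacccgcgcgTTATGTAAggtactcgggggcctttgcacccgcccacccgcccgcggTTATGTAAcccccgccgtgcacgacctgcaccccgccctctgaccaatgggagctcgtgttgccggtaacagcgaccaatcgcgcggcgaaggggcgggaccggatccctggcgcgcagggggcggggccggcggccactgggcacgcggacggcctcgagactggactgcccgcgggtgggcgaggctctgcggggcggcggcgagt

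Ciart: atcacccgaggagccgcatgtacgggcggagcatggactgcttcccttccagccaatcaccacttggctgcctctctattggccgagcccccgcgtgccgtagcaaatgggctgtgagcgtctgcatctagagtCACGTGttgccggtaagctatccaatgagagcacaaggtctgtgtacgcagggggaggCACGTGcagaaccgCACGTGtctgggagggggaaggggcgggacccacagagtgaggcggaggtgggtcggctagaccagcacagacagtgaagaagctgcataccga

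Per3 held 2 D-boxes and Ciart 3 E-boxes. Of 16 clock genes with a window, 5 (31.2%) had an E-box and 2 (12.5%) a D-box, against 11.4% and 2.55% of all windows.

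Markers of the epicardial surface were also high in replicate 1. Upk3b (chromosome 5, 136038496 to 136046487, mm10), a uroplakin of mesothelium, stood at 5.80, 1.16, 0.722 and 1.49 CPM at day 7 and 1.89, 0.824, 1.41 and 0.304 CPM at baseline. Muc16, a mesothelial surface mucin, was at 1.98, 0.238, 0.131 and 0.485 CPM. Of 12 epicardial and mesothelial genes, 10 were tested, all 10 of them highest in replicate 1, against 29.4% of all genes. With library totals 8 of 10 were, against 12.4%. The 10 genes summed to 20 CPM in replicate 1, against 7.42 to 8.49 CPM in the other 3 day 7 hearts and 7.55 to 9.45 CPM at baseline. The levels are low in every heart.

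**Figure D5:**
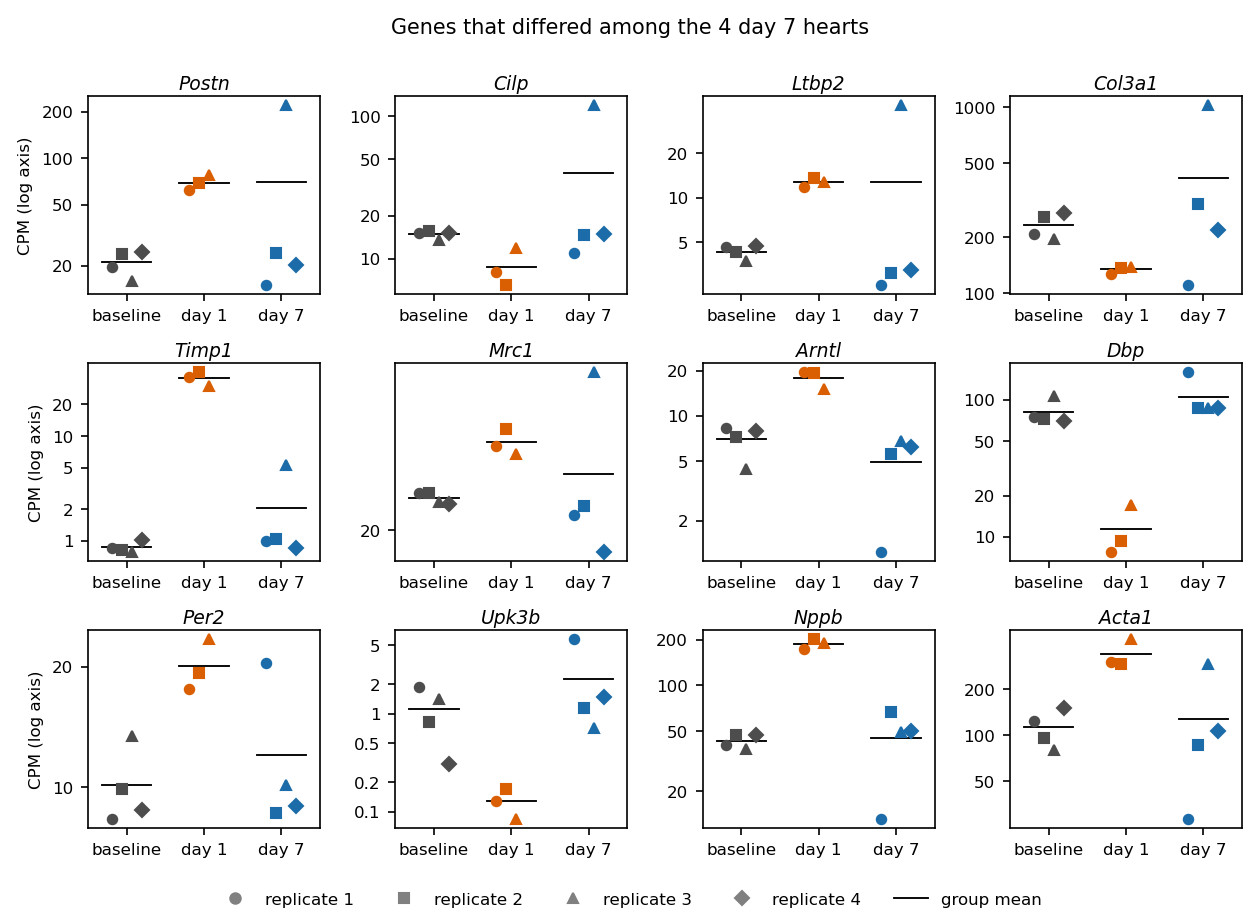
Each panel plots 1 gene in the 11 hearts, in CPM on a log axis, by group, with a marker shape for each replicate number and a line at the group mean. Replicate 3 is the highest day 7 heart for Postn, Cilp, Ltbp2, Col3a1, Timp1, Mrc1 and Acta1, and replicate 1 is the lowest for Arntl and Nppb and the highest for Dbp, Per2 and Upk3b.

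Replicates 2 and 4 were close to baseline in the list medians of these programmes. Single genes, such as Ankrd1, Nppb and Myh7, were still above every baseline heart in both. In replicate 2, the list medians of activated fibroblast, collagen, resident macrophage and oxidative phosphorylation genes were 0.02, 0.18, 0.02 and -0.03, and in replicate 4 they were -0.01, -0.02, -0.23 and -0.09. Fkbp5, a glucocorticoid-induced cochaperone, did differ between them, at 31.8, 9.78, 37.4 and 18.3 CPM at day 7 with 11.6 to 19.5 CPM at baseline and 166 to 193 CPM at day 1. MHC class I genes, several of which are near-identical copies, had medians of -0.03, 0.25, 0.35 and 0.24, with 18 of 20 above 0 in the group comparison and none called. Psmb9, an immunoproteasome subunit, was at 6.11, 5.81, 5.97 and 6.79 CPM at day 7, 5.04, 4.02, 5.67 and 4.14 CPM at baseline and 0.708 to 1.02 CPM at day 1. MHC class II genes had medians of -0.26, 0.16, 0.05 and -0.25, so replicates 1 and 4 were low. H2-Ab1, an MHC class II chain, was at 25.4, 33.4, 29.5 and 25.1 CPM with 28.5 to 31.3 CPM at baseline and 3.68 to 4.70 CPM at day 1. Day 7 hearts overlapped with baseline for H2-Ab1 and lay above it for Psmb9 (log2 difference 0.38, SE 0.13, edgeR adjusted p = 0.774).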

How the data were processed

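Per the file headers, the authors deposited 1 table per library with estimated counts per gene (9.50% of values not whole), TPM and effective length. TPM values, scaled for length by the authors, served an alternative only, as did lengths. Per the submitters' processing notes, bcl2fastq, DRAGEN, edgeR and limma were used with mm10, versions unnamed. Neither annotation release nor strandedness is given in the sources used here, so antisense or overlapping genes cannot be separated.

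The deposited estimated counts were rounded and fitted with edgeR 4.0.16 in R 4.3.3 (TMM scaling, filterByExpr with a minimum count of 10, quasi-likelihood test) over 6 group means of all 23 libraries, with Benjamini-Hochberg adjustment over 15732 genes and calls under 0.05. Symbols and mm10 coordinates are those of GENCODE M21, which holds 55141 of the 55487 identifiers, and the rest made up no more than 0.0146% of any library. CPM are TMM-scaled. Log2 values per heart use a prior count of 2. Intervals are per gene at 95% and not adjusted. They use a spread shared over the 6 groups, whose biological coefficients of variation ranged from 6.52% to 16.4%. For genes whose day 7 hearts differ, such as Cilp, they can be narrower than the compared groups alone would give. The SE of Cilp was 0.48, and 0.68 with those groups fitted alone. No 2 libraries of a group agreed within sampling noise. Library measures were compared by exact two-sided permutation tests.

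The groups come from the labels. The 51 gene lists, the genes named and the tests were chosen with earlier results of these data known. Genes were named where called, among the smallest p-values, among the largest day 1 changes, among the largest spreads of the day 7 hearts, from each list (the 4 smallest day 1 p-values and the 3 largest day 7 spreads) or from a panel. Myh6, Per3 and Ciart fall outside this rule and were chosen after their values were seen. Promoter windows are RefSeq sequences (GRCm38.p6). Alternatives were RLE size factors, no filter, robust fit, a fit of the compared groups, a replicate block, limma-voom (limma 3.58.1), offsets for effective length, DESeq2 1.42.0, log2(TPM + 0.1) and log2(TPM + 1), and leaving out each library. The fit was also tested on simulated data.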

Additional observations from a re-analysis of the deposited data

Results flagged for a closer look

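Among 4 hearts of a group, a value was marked where its gap to the nearest other heart was above Dixon's 95% critical share of the group's range, which chance alone does for about 1 in 20 groups. At day 7, 13 genes were marked for replicate 3: Postn (221.1 CPM), Cilp (119.3 CPM), Col1a1 (623.1 CPM), Ltbp2 (42.25 CPM), Thbs4 (35.29 CPM), Mt2 (35.03 CPM), C1ra (26.39 CPM), Lox (25.15 CPM), Tnc (19.11 CPM), Adgre1 (16.18 CPM), Timp1 (5.252 CPM) and Spp1 (2.265 CPM) were high, and Fam131a (14.58 CPM) was low. In replicate 1, Dbp (159.4 CPM), Per2 (20.46 CPM), Per3 (24.39 CPM) and Upk3b (5.796 CPM) were high and Npas2 (0.8836 CPM) was low. Genes were named partly for their spread among these hearts, so the number of marks is no measure of how unusual the hearts are.

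Over all 9732 genes with a mean of at least 5 CPM, with no choice of genes, replicate 3 was marked high for 150 and low for 193, replicate 1 for 89 and 86, replicate 2 for 30 and 26, and replicate 4 for 31 and 23. Single baseline hearts were marked for 42 to 85 genes on the high side and 57 to 83 on the low side.

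At baseline, Dbp (107.2 CPM), Per3 (15.82 CPM) and Ciart (6.408 CPM) were high in replicate 3, and Fam131a was low in replicate 2 (21.91 CPM) and Myh6 in replicate 4 (40950 CPM). Baseline replicate 2, the shallowest of these libraries, had the fewest genes with a read (19669).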

How the results depend on the processing

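The number of genes called between day 7 and baseline was 1 with RLE size factors, a robust fit, effective-length offsets and limma-voom, 2 with no filter on low counts (Kcna5 and Myh7) and with DESeq2 (Kcna5 and Egfl7), and 0 with the groups fitted alone, with log2(TPM + 0.1), with log2(TPM + 1) and with library totals as scaling, an alternative chosen after seeing the data. Unadjusted p-values under 0.05 then numbered 882, 704, 709 and 879. Leaving out single libraries gave 0 to 1 calls and 596 to 1306 unadjusted p-values under 0.05, the fewest without day 7 replicate 3 and the most without day 7 replicate 1. With a replicate block the count stayed at 1, Kcna5 (adjusted p = 0.0487). Same-numbered deviations correlated at 0.072, 0.0056, -0.238 and 0.0568. With 4 hearts in a group, such values cannot show whether the numbers pair the hearts, which the labels do not state.

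Leaving out 1 library at a time, the log2 difference ranged from -0.13 to 1.74 for Cilp, -0.13 to 1.07 for Col1a1, -0.14 to 1.15 for Col3a1, -0.54 to 1.92 for Ltbp2, -0.092 to 2.07 for Postn and -0.15 to 1.80 for Thbs4, with the negative values without day 7 replicate 3. At 1.5-fold, replicates 1 to 4 departed from the baseline mean in 137, 51, 329 and 47 genes and from the other 3 hearts in 270, 83, 346 and 51. With at least 20 CPM these were 14, 3, 44 and 1, and 28, 7, 55 and 6. At the settings of the report, departures from the other 3 hearts were 59, 15, 104 and 18.

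Counts of intervals inside a 2-fold difference (12978 to 13465 genes) and of day 1 calls (8803 to 10332) kept within 1.5 times the reported values in all alternatives run. Fewer intervals were that narrow among genes below 5 CPM, which limits what can be said of their return.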
